A study of Mus musculus with 6 samples.

Results

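The 41 genes described here carry glucose into the cell, break it down to pyruvate and lactate, and pass pyruvate to the mitochondrion. They were taken by symbol from a fixed list, and all 41 were found among the 54087 gene rows. Earlier results of these data were known when the list was chosen. RNA was measured in 6 libraries of male C57BL/6 germ cells at 10 days post partum (dpp), sorted by GFP from the Id4 reporter (the bright and medium gates), which the labels mark as approximately stem cells of the spermatogonial pool. The groups are Dnmt3A WT/WT (3 libraries) and Dnmt3A KO/KO (3 libraries), the second homozygous for a KO allele of the gene for the de novo DNA methyltransferase DNMT3A, and all 6 carry the reporter. The design asks how the mutant cells differ from wild type. The labels say neither how the mutant allele was made nor whether the numbered replicates are separate animals, so the p-values reflect only spread among these samples, which may be technical.

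Glycolysis converts glucose into pyruvate in a chain of cytosolic enzymes, most of which exist as several isozymes encoded by separate genes. Hexokinase, phosphofructokinase and pyruvate kinase catalyse the steps at which flux is classically regulated. Pyruvate is reduced to lactate by lactate dehydrogenase or enters the mitochondrion, where the pyruvate dehydrogenase complex turns it into acetyl-CoA unless pyruvate dehydrogenase kinases switch the complex off. Male germ cells later switch to isozymes of their own, among them PGK2, LDHC and GAPDHS, and spermatocytes and spermatids are known to use lactate supplied by Sertoli cells.

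Gene counts summed to between 42681201 and 61749155 per library. Dnmt3a stood at 199 ± 14.3 CPM (counts scaled to a common library size) for WT/WT against 98.0 ± 7.17 CPM for KO/KO (SD, n = 3 each, edgeR adjusted p = 0.000222). Genes listed for undifferentiated spermatogonia, among them the broader germ cell genes Ddx4 and Dazl, were present in every library. Over the 9 genes the summed levels were 2234 to 2304 CPM across WT/WT against 2224 to 2529 CPM across KO/KO. Within that sum Gfra1, Id4 and Ret rose (Id4 from 37.8 ± 0.780 to 140.5 ± 47.3 CPM, SD, n = 3 each) and Zbtb16, Sall4 and Uchl1 fell. All 6 listed markers of differentiating spermatogonia fell (summed 323 to 409 CPM across WT/WT against 80.1 to 187 CPM across KO/KO), and 4 of 6 tested endothelial markers, of 8 listed, rose (summed 33.8 to 40.6 and 120 to 159 CPM). The summed level of 10 Sertoli markers overlapped between WT/WT (364 to 569 CPM) and KO/KO (387 to 581 CPM), that of 8 meiotic markers did too (337 to 355 and 305 to 368 CPM), but the Sertoli marker Rhox5 rose (0.812 ± 0.385 to 23.5 ± 4.58 CPM) and the meiotic marker Sycp3 fell (41.4 ± 1.68 to 27.9 ± 4.20 CPM, SD, n = 3 each). Striated muscle markers summed to at most 2.696 CPM in any library. Spermatid markers were low (2.53 to 3.33 against 7.42 to 9.02 CPM summed), with both tested genes higher and Prm1 and Prm2 at 0 in all libraries. The macrophage marker Cd68 and the erythroid marker Hbb-bs rose, each alone among 3 tested in its list (lists summed to at most 5.26 and 7.46 CPM). Hbb-bs passed the test although its libraries overlapped (0.251, 0.0623 and 0 CPM for WT/WT against 0.134, 1.58 and 3.46 CPM for KO/KO). No peritubular myoid or Leydig marker passed (summed at most 19.3 and 15.6 CPM). The part of these shifts in the results below was not tested, and in sorted bulk cells fewer cells of a type and less RNA per cell cannot be told apart.

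In KO/KO cells more genes of the pathway fell than rose, and the falls included the hexokinases Hk1 and Hk2, the main enolase, GAPDH and the lactate and pyruvate transporter gene Slc16a1. Of the 36 genes with enough counts to be tested, 9 fell and 2 rose (edgeR quasi-likelihood test, adjusted p under 0.05), or 25.0% and 5.56% of them. Over all 21314 genes tested, 6.42% fell and 8.33% rose. The median log2 fold change of the 36 genes was -0.08 (0.02 without KO/KO replicate 1), against 0.00 over all genes, with 16 genes above 0 and 20 below. Of the 11 genes past the test, 1 changed at least 2-fold, Slc2a3. Libraries of the 2 genotypes did not overlap in CPM for 20 of the 36, 9 higher and 11 lower in KO/KO, where 18.2% and 17.5% of all tested genes did not overlap. The other 25 tested genes did not pass, and Hk3, Gapdhs, Pgk2, Pgam2 and Pdk4 had too few counts for the test. The summed level of the 41 genes was 2055 ± 64.9 CPM for WT/WT against 1709 ± 28.6 CPM for KO/KO (SD, n = 3 each), without overlap of the libraries. The most abundant genes weigh most in this sum, namely Gpi1, Pkm, Gapdh and Eno1 (means of 315.6, 277.4, 249.3 and 212.5 CPM for WT/WT). Of these, Gapdh and Eno1 passed the test and Gpi1 and Pkm did not. The number of genes past the test varied with the libraries used: 4 rose without KO/KO replicate 1, and 1 rose when any 1 WT/WT replicate was left out.

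**Figure D1:**
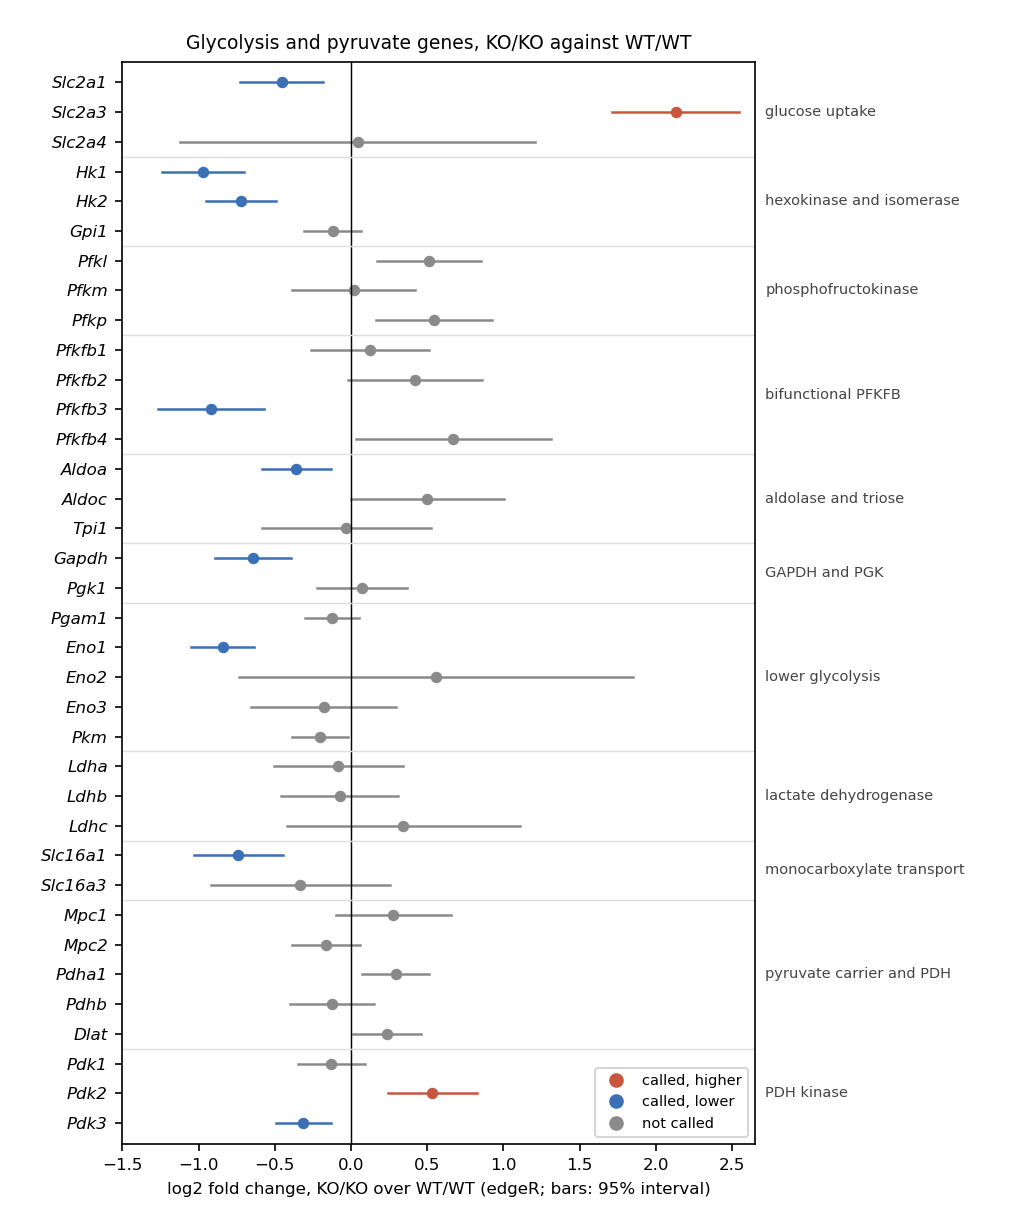
Log2 fold change of KO/KO over WT/WT (x axis) for the 36 tested genes, in pathway order from top to bottom, with 95% intervals from the edgeR fit. Slc2a3 stands far to the right at 2.13, and the 9 genes that fell lie between -0.97 and -0.31.

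The 41 genes covered a wide range of levels. Per kilobase of exon (GENCODE M21, all annotated transcripts merged, a length that includes retained introns and so lowers the value of some genes), Gapdh, Pkm, Aldoa and Gpi1 led in WT/WT at 60.3, 55.5, 53.8 and 48.9 CPM per kilobase. Among the 15394 tested genes with a length these are percentiles 97.7, 97.4, 97.3 and 96.9. Eno1 (39.5), Pdk3 (34.4), Pgam1 (33.8) and Ldhb (31.7 CPM per kilobase) followed. Ldha, the enzyme form usually dominant in glycolytic tissues, stood at 3.02 CPM per kilobase, Pgk1 at 4.54 and Tpi1 at 2.721. At the low end were Hk3, Gapdhs, Eno2, Pdk4, Pgk2, Slc2a4 and Pgam2, between 0.0255 and 0.164 CPM per kilobase. Several of these levels depend on how reads with more than 1 genomic position were treated, which the labels do not state. Pgk1 shares 53.9% of its 50-base words with other annotated genes, Pgam1 36.2%, Eno1 26.0%, Gapdh 24.7% and Ldhb 21.0%, and 21 of the 41 genes share none. The sharers are mostly processed pseudogenes (213 of 222 for Gapdh), and for Eno1 mainly Eno1b.

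**Figure D2:**
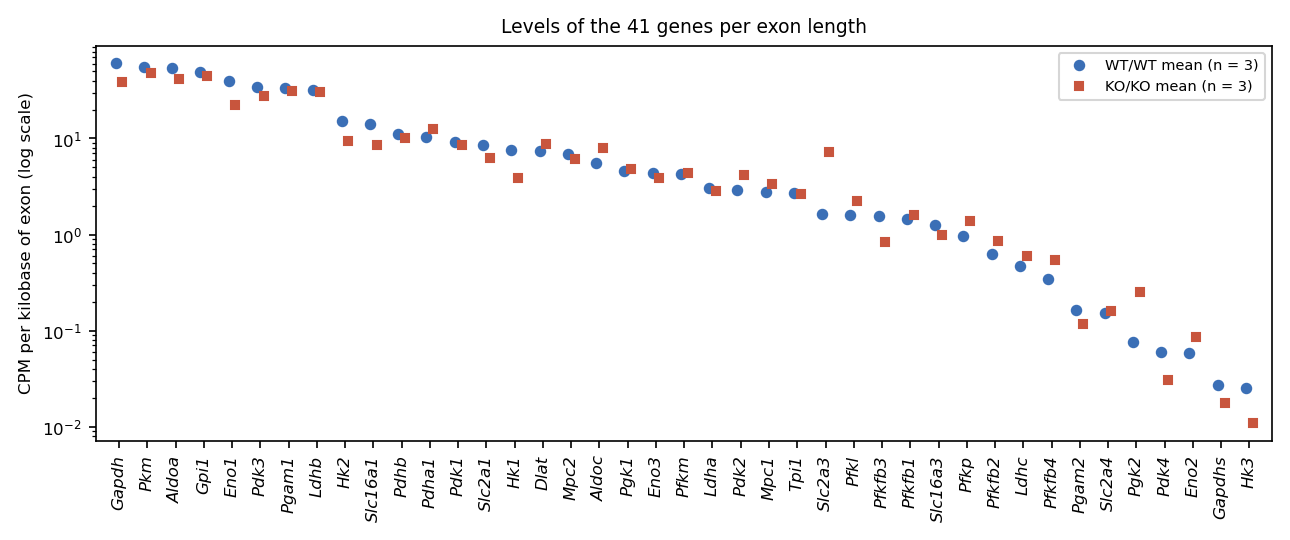
Mean level of each of the 41 genes in WT/WT (circles) and KO/KO (squares), in CPM per kilobase of exon on a log axis, ordered by the WT/WT level. Gapdh is highest at 60.3 and Hk3 lowest at 0.0255 CPM per kilobase in WT/WT.

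Glucose enters cells through facilitative transporters, and the transcripts of the 2 main ones moved in opposite directions. Slc2a3 (chromosome 6, 122727809 to 122801640, GRCm38), which encodes the high-affinity transporter GLUT3, stood at 14.3, 11.98 and 9.56 CPM in the WT/WT libraries and at 42.5, 64.4 and 50.2 CPM in the KO/KO libraries. Every KO/KO library lay above every WT/WT library, and the rise was 2.13 on the log2 scale (SE 0.19, edgeR adjusted p = 0.000252), or 4.38-fold. Slc2a1, which encodes the widely expressed GLUT1, measured 29.4, 31.4 and 28.9 CPM across WT/WT against 21.7, 18.9 and 24.8 CPM across KO/KO. It fell by 0.45 on the log2 scale (SE 0.12, edgeR adjusted p = 0.035), a fall that did not pass when any library other than KO/KO replicate 3 was left out (adjusted p between 0.065 and 0.151). Slc2a4, the insulin-responsive transporter of muscle and fat, had between 15 and 37 counts per library and did not pass (edgeR adjusted p = 0.967). On the per-kilobase scale Slc2a3 made up 18.9%, 15.3% and 13.6% of the transcripts of these 3 genes in WT/WT and 47.9%, 61.3% and 49.3% in KO/KO, while Slc2a1 went from 82.6 ± 2.54% to 46.0 ± 7.60% (SD, n = 3 each). Both shares separated the genotypes, with p = 0.1 in a two-sided exact permutation test, the smallest that 3 against 3 can give. Slc2a3 rose in the same libraries as 4 of 6 tested endothelial markers, namely Cdh5 (7.03, 7.25 and 5.32 CPM for WT/WT against 38.7, 68.3 and 48.0 CPM for KO/KO), Vwf (1.75 ± 0.277 to 10.6 ± 1.83 CPM), Kdr (8.48 ± 0.816 to 27.5 ± 5.99 CPM) and Flt1 (14.3 ± 0.813 to 46.1 ± 6.83 CPM, SD, n = 3 each). Pecam1, another of the 6, overlapped between the genotypes (2.696 to 4.88 and 3.12 to 5.23 CPM). Tek, the last of the 6, overlapped too (3.04 ± 0.323 and 2.69 ± 0.366 CPM, SD, n = 3 each). Emcn and Esam, also listed, had too few counts for the test. Over all genes tested, 8.33% rose in the KO/KO libraries. Whether the rises of Slc2a3 and the 4 markers come from the same cells was not tested.

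Of the 3 listed hexokinase genes, Hk1 and Hk2 fell and Hk3 had too few counts to test. Hk1 (chromosome 10, 62268855 to 62379908), the broadly expressed isozyme that traps glucose as glucose 6-phosphate, measured 72.7, 67.4 and 54.3 CPM across WT/WT against 35.1, 31.3 and 32.8 CPM across KO/KO. The log2 fold change was -0.97 (SE 0.12, edgeR adjusted p = 0.0011), the largest fall in the list. Hk2 (chromosome 6, 82725025 to 82774454), the inducible isozyme, measured 89.5, 88.1 and 96.6 CPM across WT/WT against 57.3, 61.1 and 48.2 CPM across KO/KO (a log2 change of -0.72, SE 0.10, edgeR adjusted p = 0.00214). Both genes were lower in every KO/KO library, and the Hk1 share of hexokinase transcripts per kilobase overlapped between WT/WT (33.1 ± 4.31%) and KO/KO (29.5 ± 2.96%, SD, n = 3 each). Hk3, the isozyme of blood cells, had between 1 and 7 counts in any library. Gpi1, which turns glucose 6-phosphate into fructose 6-phosphate, stood at 308, 308 and 331 CPM in WT/WT against 282, 319 and 270 CPM in KO/KO. Its libraries overlapped, and the 95% interval of its log2 fold change ran from -0.31 to 0.06.

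**Figure D3:**
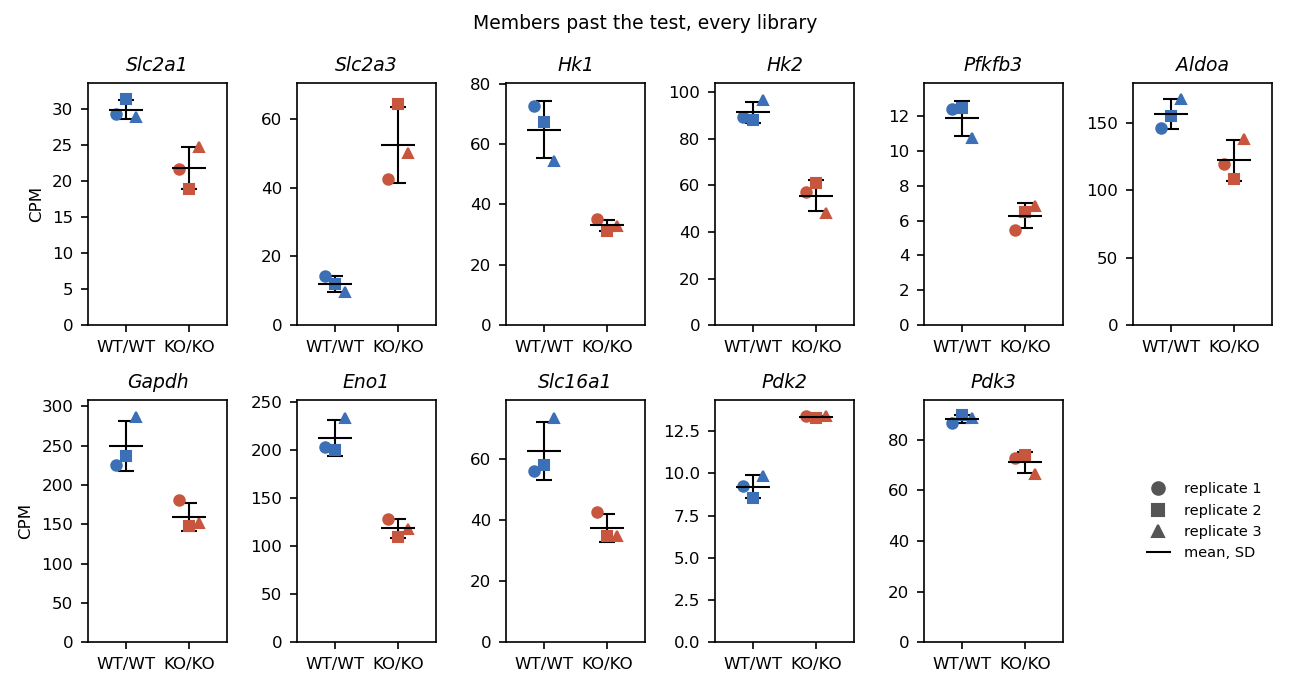
CPM in each library (symbols by replicate, bars for mean and SD, n = 3 per genotype, linear axes from 0) for the 11 genes past the test. No gene shows overlap between the genotypes, Slc2a3 and Pdk2 lie higher in KO/KO, and the other 9 lie lower.

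The phosphofructokinase genes, whose product commits sugar to glycolysis, did not pass the test. Pfkl, the liver form, measured 11.8, 10.1 and 9.85 CPM across WT/WT against 13.6, 13.9 and 17.7 CPM across KO/KO (a log2 change of 0.51, SE 0.15, edgeR adjusted p = 0.0505). Pfkp, the platelet form, measured 14.7, 13.0 and 10.9 CPM across WT/WT against 15.0, 21.6 and 19.7 CPM across KO/KO (a log2 change of 0.55, SE 0.17, edgeR adjusted p = 0.0593). For both, the lowest KO/KO library exceeded the highest WT/WT library, just outside the threshold, and DESeq2 placed them past it (adjusted p = 0.0199 and 0.0191). Pfkm, the muscle form, overlapped (11.2 to 15.9 CPM across WT/WT against 12.4 to 17.4 CPM across KO/KO, log2 fold change 0.02). On the per-kilobase scale Pfkm held the largest share of the 3 in both genotypes, 62.5 ± 3.18% in WT/WT and 54.1 ± 5.94% in KO/KO (SD, n = 3 each). Its lead in KO/KO rests on the division by length. As shares of raw counts, Pfkm held 37.8% in WT/WT and 30.0% in KO/KO, where Pfkp held 38.6% and Pfkl 31.3% (means, n = 3 each).

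Among the 4 genes of the bifunctional enzymes that make and remove fructose 2,6-bisphosphate, an activator of phosphofructokinase, 1 fell. Pfkfb3, the isozyme with the strongest bias toward making the activator, measured 12.4, 12.5 and 10.7 CPM across WT/WT against 5.47, 6.51 and 6.85 CPM across KO/KO (a log2 change of -0.92, SE 0.16, edgeR adjusted p = 0.0047). Pfkfb2 (3.90 to 5.68 CPM across WT/WT against 5.72 to 6.65 CPM across KO/KO) and Pfkfb4, the form abundant in testis (1.15 to 2.33 and 2.46 to 2.82 CPM), exceeded WT/WT in all KO/KO libraries but missed the threshold (edgeR adjusted p = 0.186 and 0.151). Pfkfb1 overlapped, at 5.27 to 6.18 and 5.72 to 7.33 CPM. The Pfkfb3 share of the 4 transcripts per kilobase was 38.9%, 40.97% and 37.6% in WT/WT and 18.6%, 22.9% and 23.8% in KO/KO, and Pfkfb1 led in KO/KO at 41.7 ± 4.67% (SD, n = 3).

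In the middle of the pathway, aldolase A and GAPDH transcripts fell. Aldoa, the main aldolase, which splits fructose 1,6-bisphosphate, measured 146, 155 and 168 CPM across WT/WT against 120, 108 and 138 CPM across KO/KO. Its fall of 0.36 on the log2 scale (SE 0.10, edgeR adjusted p = 0.0419) lay near the threshold and did not pass when any library other than KO/KO replicate 3 was left out (adjusted p between 0.0707 and 0.159). Gapdh, whose enzyme oxidises glyceraldehyde 3-phosphate, measured 225, 237 and 286 CPM across WT/WT against 180, 148 and 151 CPM across KO/KO (a log2 change of -0.64, SE 0.11, edgeR adjusted p = 0.00528). It is often used as a reference transcript, and here its libraries did not overlap between the genotypes. Aldoc, the brain form of aldolase, measured 19.95, 21.0 and 14.1 CPM across WT/WT against 19.3, 35.2 and 23.4 CPM across KO/KO and did not pass (edgeR adjusted p = 0.171). Tpi1, which interconverts the triose phosphates, measured 6.92, 7.66 and 7.89 CPM across WT/WT against 6.01, 5.35 and 10.6 CPM across KO/KO, with KO/KO replicate 3 above and the other KO/KO libraries below every WT/WT library. Pgk1, an X-linked gene whose enzyme makes the first ATP of the pathway, measured 10.3, 10.0 and 10.3 CPM across WT/WT against 10.8, 10.1 and 11.3 CPM across KO/KO (95% interval of the log2 fold change -0.22 to 0.37).

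At the lower end of glycolysis the main enolase fell while its neighbours in the chain did not pass. Eno1 (chromosome 4, 150236721 to 150248879) measured 204, 200 and 234 CPM across WT/WT against 129, 109 and 118 CPM across KO/KO, a log2 fold change of -0.84 (SE 0.09, edgeR adjusted p = 0.000658). Its near-identical copy Eno1b, with which it shares 1395 distinct 50-base words, measured 7.42, 7.97 and 8.85 CPM across WT/WT against 4.96, 3.51 and 10.3 CPM across KO/KO, with KO/KO replicate 3 above and the other KO/KO libraries below WT/WT. Pgam1, the mutase that acts just before enolase, measured 67.1, 64.6 and 69.0 CPM across WT/WT against 63.1, 60.4 and 60.9 CPM across KO/KO. Pkm, the pyruvate kinase gene, measured 257, 280 and 294 CPM across WT/WT against 222, 254 and 247 CPM across KO/KO. Both lay lower in every KO/KO library, but by only 0.12 and 0.20 on the log2 scale, and did not pass (edgeR adjusted p = 0.344 and 0.134). Eno3, the muscle enolase, stood at 6.67 to 9.02 CPM across WT/WT against 4.92 to 7.60 CPM across KO/KO, and Eno2, the neuronal form, had between 7 and 27 counts per library. Pgam2, the muscle mutase, had at most 12 counts.

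Lactate dehydrogenase transcripts did not pass the test, and their shares overlapped between the genotypes. Ldhb, the heart form, measured 60.5, 51.0 and 37.8 CPM across WT/WT against 40.2, 46.3 and 55.2 CPM across KO/KO, with every KO/KO library inside the WT/WT range (log2 fold change -0.07, 95% interval -0.46 to 0.31). Ldha measured 10.4, 9.20 and 10.3 CPM across WT/WT against 7.55, 8.61 and 12.1 CPM across KO/KO (95% interval -0.50 to 0.34). Per kilobase, Ldhb made up 89.8 ± 2.46% of the 3 transcripts in WT/WT and 89.8 ± 0.892% in KO/KO, and Ldha 8.84 ± 2.10% and 8.41 ± 0.690% (SD, n = 3 each). Ldha shares 9.26% of its 50-base words, spread over 328 genes of which 19 are pseudogenes. Ldhb shares 21.0%, all with Gm5514, so both levels depend in part on the treatment of shared reads.

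Slc16a1 (chromosome 3, 104638668 to 104658462), which encodes the monocarboxylate transporter MCT1, fell. It measured 56.1, 57.9 and 73.4 CPM across WT/WT against 42.6, 34.7 and 34.9 CPM across KO/KO (a log2 change of -0.74, SE 0.13, edgeR adjusted p = 0.00562). Slc16a3, whose product MCT4 exports lactate from highly glycolytic cells, measured 8.42, 7.31 and 4.24 CPM across WT/WT against 4.89, 4.48 and 6.48 CPM across KO/KO and did not pass (edgeR adjusted p = 0.443). The chaperone that both transporters need, Bsg, ranged from 123 to 143 CPM across WT/WT against 81.0 to 116 CPM across KO/KO, lower in every KO/KO library without passing (edgeR adjusted p = 0.149).

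The entry of pyruvate into the mitochondrion was described by 5 genes, of which none passed. Pdha1, the X-linked catalytic subunit of pyruvate dehydrogenase, measured 35.9, 42.2 and 36.9 CPM across WT/WT against 48.95, 46.4 and 45.8 CPM across KO/KO (a log2 change of 0.30, SE 0.10, edgeR adjusted p = 0.0747). Dlat, the acetyltransferase subunit, measured 35.0, 38.8 and 34.6 CPM across WT/WT against 41.5, 46.1 and 40.2 CPM across KO/KO (edgeR adjusted p = 0.145). Mpc1, a subunit of the mitochondrial pyruvate carrier, measured 5.52, 5.92 and 5.86 CPM across WT/WT against 6.68, 8.09 and 6.20 CPM across KO/KO (edgeR adjusted p = 0.311). These 3 genes lay higher in every KO/KO library. Their partners Pdhb (38.9 to 45.9 CPM across WT/WT against 33.4 to 44.4 CPM across KO/KO) and Mpc2 (46.0 to 55.6 and 43.7 to 47.0 CPM) overlapped. For Pdha1, 16.1% of the exon bases lie under Map3k15 on the opposite strand, and for Mpc1 23.1% lie under 4930506C21Rik, and how strand was handled in counting is unknown from the labels.

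The kinases that switch pyruvate dehydrogenase off were the only family, beside the glucose transporters, with calls in both directions. Pdk2, a kinase expressed in many adult tissues, measured 9.24, 8.54 and 9.85 CPM across WT/WT against 13.4, 13.3 and 13.4 CPM across KO/KO (a log2 change of 0.53, SE 0.13, edgeR adjusted p = 0.0237). Pdk3, an X-linked gene and the most abundant of the family here, measured 86.4, 89.6 and 88.5 CPM across WT/WT against 72.6, 74.1 and 66.2 CPM across KO/KO (a log2 change of -0.31, SE 0.08, edgeR adjusted p = 0.0302). Neither call held when a WT/WT replicate was left out (adjusted p between 0.0601 and 0.131 for Pdk2 and between 0.0866 and 0.136 for Pdk3), and that of Pdk3 was also lost without KO/KO replicate 1 (adjusted p = 0.0601) or 3 (adjusted p = 0.0852). Pdk1, a target of hypoxia signalling, overlapped at 68.6 to 73.6 and 60.3 to 74.1 CPM, and Pdk4, induced by fasting in other tissues, had between 4 and 17 counts. Within the family, Pdk2 went from a share of 6.25 ± 0.496% to 10.5 ± 0.674% per kilobase and Pdk3 went from 73.8 ± 0.660% to 68.6 ± 0.960% (SD, n = 3 each), with no overlap of the libraries.

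**Figure D4:**
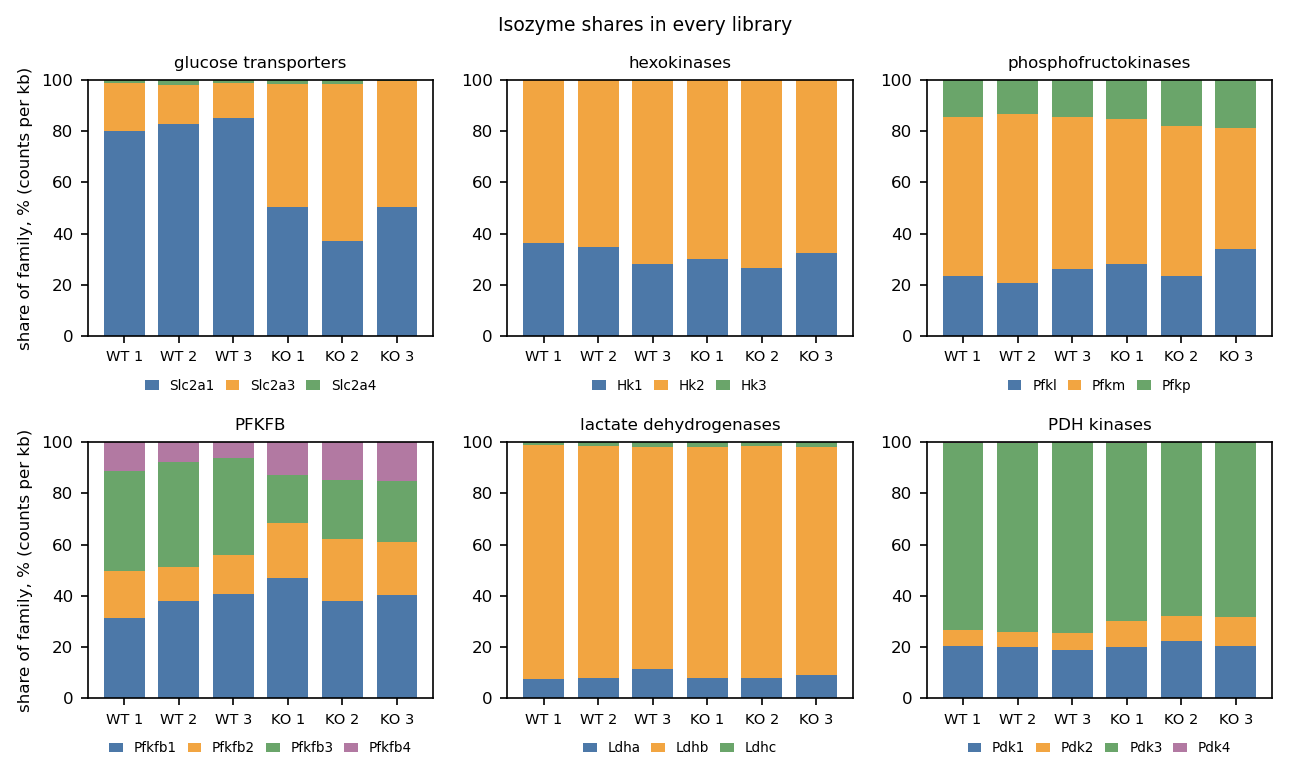
Share of each isozyme in its family in every library for 6 of the 12 families, as a percent of counts per kilobase of exon (stacked bars, WT 1 to 3 and KO 1 to 3). The Slc2a3 share spans 13.6% to 18.9% for WT/WT and 47.9% to 61.3% for KO/KO, while hexokinase and lactate dehydrogenase shares overlap between the genotypes.

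Over the 12 families, 33 isozyme shares were compared. The libraries did not overlap for 12 of them, which belong to the glucose transporters, the phosphofructokinases, the PFKFB genes, the aldolases, the enolases and the pyruvate dehydrogenase kinases. Each gave p = 0.1 in the exact permutation test and 0.275 after Benjamini-Hochberg adjustment over the 33, so none could pass at this number of libraries. In CPM, 18.2% of all tested genes lay higher and 17.5% lower in KO/KO without overlap. Shares of a family add up to the whole and are not separate comparisons, as with Aldoa (-6.53) and Aldoc (6.53 percentage points). The Eno2 share rests on 7 to 27 counts per library. Outside the glucose transporters and Pfkfb3, which moved by -17.4 percentage points, the mean share of Pfkm moved by -8.40 percentage points per kilobase.

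The isozymes Pgk2, Ldhc and Gapdhs of later germ cells were scarce in both genotypes. Pgk2, a single-exon relative of Pgk1 on chromosome 17 that is switched on in spermatocytes, had 9, 2 and 5 counts in WT/WT and 6, 8 and 60 counts in KO/KO, the last in replicate 3, and did not reach the count filter. Ldhc, the testis lactate dehydrogenase, had 31, 35 and 32 counts in WT/WT and 37, 37 and 79 in KO/KO, or 0.708, 0.727 and 0.784 CPM against 0.827, 0.750 and 1.23 CPM, again highest in KO/KO replicate 3. It did not pass (edgeR adjusted p = 0.553). Gapdhs, the sperm GAPDH, had at most 4 counts in any library. In KO/KO replicate 3 the processed Ldhb copy Gm5514, named after its values were seen, also stood apart, with 260 counts against 32 to 50 in the other 5 libraries. The meiotic marker Sycp1 stood at 230 CPM there and between 214 and 281 CPM in the others. Pdha2, the testis form of the pyruvate dehydrogenase subunit, was not scarce and overlapped, at 6.83 to 10.1 CPM across WT/WT against 8.55 to 14.4 CPM across KO/KO.

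The start regions of the genes were compared for 2 short motifs. The hypoxia factor HIF1 and the E-box factors of the MYC family are known regulators of glycolytic genes, so the 250 bases before each RefSeq start site (GRCm38.p6) were searched on both strands for the hypoxia core ACGTG and the E-box CACGTG, which contains it. RefSeq start sites were matched for 39 genes, all but Slc2a3 and Slc2a4, with 61 start sites in all. The hypoxia core was found before 20 of the 61 (32.8%), belonging to 16 genes, against 16.6% of all 32851 start sites, and the E-box before 6 (9.84% against 6.02%). The hypoxia core holds a CG pair, and these start regions were CG-rich, with a median of 13 CG pairs against 6 over all. Among start regions with at least 13, the median of the listed genes, the core was found in 15 of 31 (48.4%) for these genes and in 25.0% of all. Start sites of 1 gene were counted separately, and 2 overlapping Aldoa regions hold the same core. Shown are 2 genes that fell with the core (Hk2, Slc16a1), 1 that fell without it (Gapdh) and 1 that rose with it (Pdk2). Of the other genes that fell, Slc2a1, Pfkfb3, Aldoa and Pdk3 had the core before a start site and Hk1 and Eno1 did not. Genes that did not pass held it too, among them Ldha and Pgk1. Whether the core goes with a change was not tested. Capitals mark the core on either strand.
Hk2, chr6:82774455-82774704, minus strand: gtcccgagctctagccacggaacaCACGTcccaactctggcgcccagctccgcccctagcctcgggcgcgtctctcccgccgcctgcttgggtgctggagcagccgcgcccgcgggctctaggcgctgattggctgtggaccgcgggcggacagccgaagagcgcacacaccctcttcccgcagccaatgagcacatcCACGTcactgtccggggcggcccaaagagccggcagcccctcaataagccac
Slc16a1, chr3:104638414-104638663, plus strand: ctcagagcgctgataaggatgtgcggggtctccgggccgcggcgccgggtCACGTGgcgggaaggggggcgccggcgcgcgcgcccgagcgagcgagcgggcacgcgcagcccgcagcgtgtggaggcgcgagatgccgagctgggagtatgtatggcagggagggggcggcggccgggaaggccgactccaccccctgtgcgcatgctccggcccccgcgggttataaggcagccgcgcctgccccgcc
Gapdh, chr6:125165774-125166023, minus strand: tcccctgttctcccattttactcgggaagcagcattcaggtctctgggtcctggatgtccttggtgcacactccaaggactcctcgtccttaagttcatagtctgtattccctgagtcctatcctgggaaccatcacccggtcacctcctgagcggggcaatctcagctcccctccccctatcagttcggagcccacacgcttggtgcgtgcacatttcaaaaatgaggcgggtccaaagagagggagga
Pdk2, chr11:95041372-95041621, minus strand: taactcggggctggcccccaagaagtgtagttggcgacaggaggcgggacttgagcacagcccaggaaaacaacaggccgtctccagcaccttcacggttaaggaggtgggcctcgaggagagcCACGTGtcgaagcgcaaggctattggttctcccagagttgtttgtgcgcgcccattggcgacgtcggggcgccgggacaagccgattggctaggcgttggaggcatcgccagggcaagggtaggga
Before Hk2 there are 25 CG pairs and 2 separate cores. Before Slc16a1 there are 37 CG pairs, and before Pdk2 19, and in both the capitals form a single E-box, which reads as the core on each strand. Before Gapdh there are 8 CG pairs and no core, nor is there 1 before a second Pdk2 start site. A match is a string of letters and does not show that a factor binds there.

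Beyond the 41 genes, 12 further lists were followed, which hold 121 other genes. They cover the rest of carbohydrate metabolism, but also regulators of the pathway, other hypoxia targets and germline metabolic paralogues. Of 107 tested, 17 fell and 9 rose (15.9% and 8.41%), where 6.42% and 8.33% of all 21314 tested genes did. The median log2 fold change was -0.04. Without any 1 WT/WT replicate the falls were 8, 7 and 7 and the rises 4, 3 and 3. Over all genes, 652, 560 and 663 then fell and 1083, 814 and 892 rose, against 1368 and 1776 with all libraries.

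Regulators of the pathway included both directions. Txnip, which restrains glucose uptake and is itself induced by glucose, rose from 159 ± 18.1 to 253 ± 19.2 CPM (log2 fold change 0.67, SE 0.10, edgeR adjusted p = 0.00254). Mycn, a MYC family activator of growth and metabolism, fell from 51.8 ± 6.14 to 31.9 ± 6.30 CPM, and Vhl, the ubiquitin ligase subunit that removes HIF1, from 23.7 ± 1.65 to 16.2 ± 2.30 CPM (SD, n = 3 each). Of the 17 genes in this list 2 rose and 4 fell, and Hif1a itself stood at 126 to 132 CPM across WT/WT against 116 to 130 CPM across KO/KO (log2 fold change -0.07). Of 12 tested hypoxia targets outside the pathway none rose and 3 fell, Bnip3, Ddit4 and Egln3, the last of which also counts among the regulators.

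The branches around glycolysis held a few clear changes. Got2, the mitochondrial aspartate aminotransferase of the malate-aspartate shuttle that carries NADH electrons inward, measured 44.8, 46.0 and 41.03 CPM across WT/WT against 19.0, 13.3 and 16.5 CPM across KO/KO (a log2 change of -1.43, SE 0.14, edgeR adjusted p = 0.000362). Slc25a12, an aspartate carrier of the same shuttle, rose (log2 fold change 1.03, SE 0.27), and the other 6 genes of the shuttle list did not pass. In glycogen metabolism 2 of 10 rose, among them the muscle phosphorylase Pygm (log2 fold change 1.27), and 3 fell, among them the branching enzyme Gbe1 (log2 fold change -1.18) and Pgm2 (-0.61). In the pentose phosphate pathway Tkt and Tktl1, a transketolase and its relative, rose by 0.54 and 0.37 on the log2 scale and Pgd fell by 0.38, of 9 tested. Psat1 of serine synthesis (log2 fold change -0.57) and Pck1 and Pck2, the phosphoenolpyruvate carboxykinases of gluconeogenesis (-1.63 and -0.90), fell as well.

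Other carriers and enzymes mostly did not pass. Of 19 tricarboxylic acid cycle genes 1 fell, Suclg2, a subunit of succinyl-CoA ligase (log2 fold change -0.69), and none rose. Of the 5 remaining genes of the pyruvate dehydrogenase complex and its phosphatases 1 fell, Pdp2 (-0.47). The sodium-glucose cotransporter gene Slc5a1, at 36, 49 and 31 counts in WT/WT and 8, 4 and 2 in KO/KO, was the only 1 of 11 further transporters past the test. Slc5a1 reached the count filter only through the WT/WT libraries. Among 3 other hexokinases Adpgk, the ADP-dependent glucokinase, stood at 28.5 ± 3.49 CPM for WT/WT against 28.7 ± 0.871 CPM for KO/KO (SD, n = 3 each; edgeR adjusted p = 0.971). The hexokinase relative Hkdc1, counted among the rises, had 1 count in each WT/WT library and 19, 19 and 49 counts in KO/KO. Hkdc1 reached the count filter only through the KO/KO libraries, so its call is not independent of the filter. Cox8c, a germ cell subunit of cytochrome oxidase, rose from 1.31 ± 0.145 to 3.66 ± 2.06 CPM (SD, n = 3 each, edgeR adjusted p = 0.0341), the only 1 of 6 tested germline paralogues to pass.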

How the data were processed

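Per the labels' protocols, PicoPure-isolated, DNase-digested RNA went into SMARTer Stranded libraries. The deposited values are raw counts per gene. The submitters' processing notes name STAR 2.7.0a, featureCounts 1.5.1 and the mm10 build. Not given in the sources used here: annotation release, strand setting, multi-mapping reads. The 1205 transposable element rows were left out of totals and tests.

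Counts were tested with edgeR 4.0.16 in R 4.3.3 (quasi-likelihood F test, TMM, filterByExpr, genotype as the only term, two-sided, Benjamini-Hochberg over 21314 genes, threshold 0.05), after the code was tested on simulated data. CPM use gene totals and TMM factors, and the 3 libraries per genotype limit the precision. The SE is the log2 fold change divided by the square root of F. Alternatives were RLE and upper quartile factors, other filters, DESeq2 1.42.0, limma-voom (limma 3.58.1), a replicate block and leaving out each library.

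Earlier results of these data were known when the members, the lists and the naming rule were chosen. The rule takes members that passed the test or did not overlap, the main isozyme of each family, Pgk2, Ldhc, Gapdhs, and up to 3 called genes per further list. Bsg, Hif1a, Pdha2, Adpgk, gene copies and single cell markers were added as context after their values were seen. Positions, lengths and overlaps came from GENCODE M21 (GRCm38, the assembly of mm10), where Aldoa was assigned by its overlap with RefSeq. Shared 50-base words were counted against all other GENCODE transcripts outside the gene's locus. Shares were compared by exact permutation. Plots used matplotlib 3.10.9.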

Additional observations from a re-analysis of the deposited data

How the results depend on the processing

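No gene past the test changed direction under any alternative run, and Slc2a3, Hk1, Hk2, Pfkfb3, Gapdh, Eno1 and Slc16a1 passed under all of them. The number of genes that rose was 4 with DESeq2 and 5 without a filter on low counts, against 2, and ranged from 1 to 4 when 1 library was left out. It was 3 with RLE factors, with upper quartile factors and with a filter at 1 CPM. The number that fell ranged from 6 to 8 when 1 library was left out and was 9 under the other scalings, filters and tools. Pfkl and Pfkp were added by DESeq2, and Pfkl, Pfkp and Aldoc without a filter. Pfkl also passed with RLE factors (edgeR adjusted p = 0.0468), upper quartile factors (0.0457) and the filter at 1 CPM (0.039). Leaving out KO/KO replicate 1 added Pfkl (edgeR adjusted p = 0.0432) and Pfkp (0.021), and leaving out KO/KO replicate 2 added Pfkl (0.0418). Same-numbered libraries did not deviate together (correlations of -0.0862, 0.0381 and 0.0185), so the numbers were not taken as pairs. With the replicate block 1 gene rose and 7 fell, without Slc2a1 (adjusted p = 0.0602), Pdk2 (0.0553) and Pdk3 (0.0668), and 1467 and 1107 of all genes. As shares of raw counts, not divided by length, the shifts were 9.53 percentage points for Pfkfb2, -20.3 for Pfkfb3 and 3.47 for Pdk2. For the 12 further lists, an alternative chosen after seeing the data, rises ranged from 3 to 8 and falls from 7 to 16 when 1 library was left out. Without 1 WT/WT library, 1083, 814 and 892 genes rose and 652, 560 and 663 fell over all genes. The cause of these shifts was not tested. Without a filter, 2575 rose and 1914 fell of 36553. Depth limits Hk3, Gapdhs, Pgk2, Pgam2 and Pdk4, at most 60 counts in any library.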
